A study of Mus musculus with 16 samples.

Results

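Of 3266 lymph node CD8 T cells with a transcriptome, 163 carried at least 1 UMI (unique molecular identifier, a counted transcript) for 2 or more of the 6 genes Itga1, Itgae, Gzma, Gzmb, Lgals3 and Ccr10. These 163 resident-like effector cells, the selected cells below, were compared with the other 3103 cells across all genes outside the selection and, by cell barcode, across T cell receptor sequences. The mice were C57BL/6, 16 weeks old, and had melanoma-associated vitiligo, in which T cells raised against a melanoma also destroy normal pigment cells of the skin. All cells had been sorted as CD8+CD44+. The tumor-draining lymph node and the lesional skin were taken 45 days after the tumor was removed by surgery. The node was dissociated mechanically through a 40 µm filter, and the skin was digested with collagenase and DNase. How many mice were pooled is not stated, and all groups share this disease state, so no untreated or vitiligo-free animals enter any comparison. The lymph node RNA and each receptor table came from 1 library on 4 lanes, which share their cells and are not replicates. No test between conditions was therefore possible. All intervals are exact 95% intervals that cover counting error only, not the spread between mice. Skin RNA was not analysed here.

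Resident memory CD8 T cells stay in barrier tissues such as skin instead of circulating, and are held there by integrins and by loss of the receptors and transcription factors that lead cells back into lymph and blood. Effector CD8 T cells carry cytotoxic granules and leave the quiescent, stem-like state that keeps memory cells in lymph nodes. Itga1 (CD49a) pairs into a collagen-binding integrin, and Itgae (CD103) into the integrin that binds E-cadherin on epithelial cells. Gzma and Gzmb are granule proteases, Lgals3 is galectin-3, and Ccr10 is a chemokine receptor that responds to ligands made by skin keratinocytes.

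The receptors of the selected cells are given before their expression, because they did not enter the selection. The 6 genes had, however, been chosen with earlier results of these data known, so the receptor shares are no independent support for the selection. A clone was defined by identical nucleotide sequences of the CDR3, the region of each receptor chain that contacts the peptide, in both the TRB and the TRA chain. A clone could be assigned to 81 of the 163 selected cells (49.7%), in 79 clones, and to 2054 of the 3103 other cells (66.2%). Of the selected cells with a clone, 22 belonged to a clone that was also found in skin (27.2%, 17.9 to 38.2), against 7 of 2054 other cells (0.341%, 0.137 to 0.701). The intervals did not overlap. Selected cells thus made up 22 of the 29 shared-clone cells with a transcriptome, while they were 59 of the 2106 cells whose clone was not found in skin (2.80%, 2.14 to 3.60). When receptor sequences needed 3 or more UMIs, the share of selected cells in shared clones was lower. It was then 7 of 48 (14.6%, 6.07 to 27.8), against 5 of 1429 other cells (0.350%, 0.114 to 0.815).

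The 22 cells fell into 20 clones, which together held 179 of 1322 skin cells with a clone (13.5%). Their skin sizes ran from 1 to 88 cells with a median of 4. Of the 20 clones, 16 had at least 2 skin cells, 9 had at least 5 and 3 had at least 10. The 5 clones with most skin cells are printed here as their CDR3 nucleotide sequences, 5′ to 3′. Lower case marks the first and last 12 bases, where most letters come from the V and J segments, and capitals mark the bases between.
Clone A TRB (TRBV3, TRBJ1-2): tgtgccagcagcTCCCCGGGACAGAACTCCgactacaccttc
Clone A TRA (TRAV14-3, TRAJ45): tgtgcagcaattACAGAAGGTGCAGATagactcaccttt
Clone B TRB (TRBV19, TRBJ1-1): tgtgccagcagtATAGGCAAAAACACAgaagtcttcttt
Clone B TRA (TRAV13-1, TRAJ44): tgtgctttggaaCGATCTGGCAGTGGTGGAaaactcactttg
Clone C TRB (TRBV19, TRBJ1-1): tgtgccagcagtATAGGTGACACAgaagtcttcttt
Clone C TRA (TRAV6-6, TRAJ58): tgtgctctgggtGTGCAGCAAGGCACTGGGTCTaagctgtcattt
Clone D TRB (TRBV16, TRBJ2-7): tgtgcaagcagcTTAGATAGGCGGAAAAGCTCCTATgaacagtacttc
Clone D TRA (TRAV7-3, TRAJ39): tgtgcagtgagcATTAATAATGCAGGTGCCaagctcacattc
Clone E TRB (TRBV19, TRBJ2-3): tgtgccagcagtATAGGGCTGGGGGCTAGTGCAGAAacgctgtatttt
Clone E TRA (TRAV7-5, TRAJ34): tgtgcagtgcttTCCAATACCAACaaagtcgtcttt

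Clone A held 88 skin cells, 6.66% of all skin cells with a clone, and had 1 cell among the selected cells. That cell carried 1 UMI each of Itga1, Lgals3 and Ccr10, and none of Itgae, Gzma or Gzmb. Clones B, C, D and E held 17, 10, 9 and 8 skin cells, with 1 selected cell each. The cell of clone B carried 7 UMIs of Itgae and 3 of Gzma. The cell of clone C carried 16 UMIs of Gzmb and 4 of Lgals3 and no integrin UMI. The cell of clone E carried 22 UMIs of Gzma, 5 of Lgals3 and 1 of Gzmb. The selected cells of these clones thus carried different combinations of the 6 genes.

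Among the shared clones of selected cells, 4 used TRBV19, and the TRB CDR3 of all 4 opened with the bases tgtgccagcagtATAGG. These are clones B, C and E above and clone R, with 1 skin cell, whose sequence is shown for comparison.
Clone R TRB (TRBV19, TRBJ2-4): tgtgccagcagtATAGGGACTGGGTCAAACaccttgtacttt
The opening was chosen after these sequences were seen. Besides these 4 clones, from which it was read, it was present in 1 of the other 4 TRBV19 clones with a selected cell. It was present in 9 of 115 TRBV19 clones of the node without one (7.83%, 3.64 to 14.3) and in 15 of 89 TRBV19 clones of skin (16.9%, 9.75 to 26.3). The skin count includes the 4 clones from which the opening was read, so it is not independent of them. The median TRB CDR3 length was 42 bases in each of these sets of clones, over all V segments.

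Clones F and Q had the same TRB CDR3, of TRBV10 and TRBJ1-2, and TRA CDR3 sequences of TRAV6-2 and TRAJ11 that differed at a position near the V segment.
Clones F and Q TRB: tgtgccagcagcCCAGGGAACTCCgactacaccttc
Clone F TRA: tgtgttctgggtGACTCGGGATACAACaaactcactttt
Clone Q TRA: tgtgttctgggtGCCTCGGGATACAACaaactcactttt
The difference was A14C, counted from 1 at the 5′ end of the CDR3, with clone F as the reference. Each of the TRA contigs had 2 UMIs in the lymph node cell. Clone F was found in 7 skin cells and clone Q in 1, so the pair was present in both tissues. The Q cell carried 10 UMIs of Gzmb and 11 of Lgals3, and the F cell 1 and 3.

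The share of cells in clones also found in skin was higher in cells with more of the 6 genes. It was 3 of 1791 (0.168%, 0.035 to 0.489) with none and 4 of 263 (1.52%, 0.416 to 3.85) with exactly 1 gene, the cells just outside the selection. It was 7 of 49 (14.3%, 5.94 to 27.2) with exactly 2 genes, the cells just inside, 7 of 18 (38.9%, 17.3 to 64.3) with 3, and 8 of 14 (57.1%, 28.9 to 82.3) with 4 or 5. The intervals with 1 and 2 genes did not overlap, nor did those with 2 and with 4 or 5, whereas the interval with 3 genes overlapped both of its neighbours. The median depth was 4476 UMIs per cell with no gene, 4122.5 with 1, 4031 with 2, 2821 with 3, 2735 with 4 and 3670 with 5. The part of depth in these shares was not tested.

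**Figure D1:**
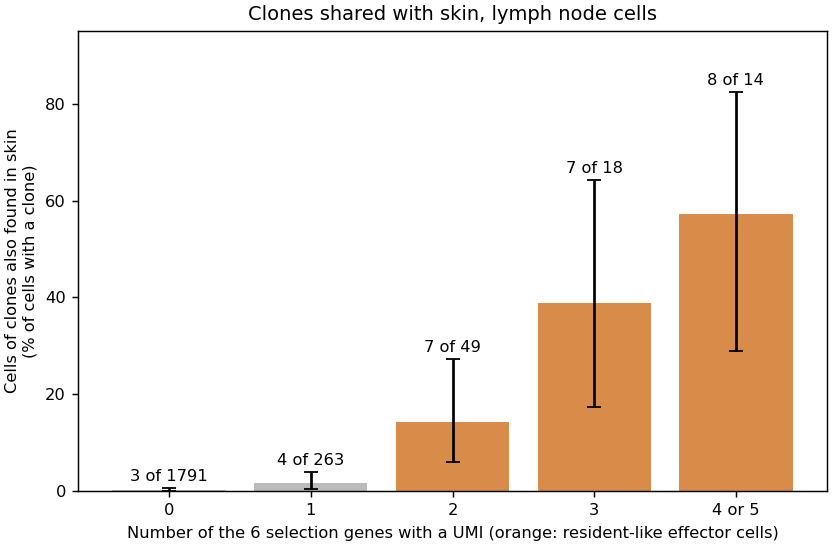
Share of lymph node cells with a clone whose clone was also found in skin, in percent, by how many of the 6 selection genes had a UMI. Bars show the share, numbers above them the cells, and lines exact 95% binomial intervals. The share runs from 3 of 1791 cells with no gene to 8 of 14 with 4 or 5.

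Clonal expansion within the node was rarer among selected cells than sharing with skin. Clones of at least 2 lymph node cells held 8 of 81 selected cells (9.88%, 4.36 to 18.5) and 96 of 2054 other cells (4.67%, 3.80 to 5.68), and these intervals overlapped. With clones defined by TRB alone they did not: the shares were 20 of 95 (21.1%, 13.4 to 30.6) and 235 of 2492 (9.43%, 8.31 to 10.6). Of 47 clones with at least 2 cells in the gene table, 3 had a selected cell, and in 2 of these, clones H and J, both cells were selected. The cells of clone H carried 3 and 4 of the 6 genes and those of clone J carried 4 and 5. Both clones were also in skin, with 5 and 4 cells. In the third clone, which was not found in skin, 1 of 2 cells was selected, with 2 genes against 1 in its partner.

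V segments were counted once per clone. TRBV19 was used by 8 of 79 clones with a selected cell (10.1%, 4.47 to 19.0), by 5.73% (4.75 to 6.84) of the 2008 other clones of the node and by 12.7% of skin clones. TRBV17 was used by 7 of 79 (8.86%, 3.64 to 17.4) against 2.24% (1.64 to 2.99), the only TRBV segment of the 5 with most selected clones whose intervals did not overlap, and by 3.43% of skin clones. TRBV13-1, TRBV3 and TRBV13-3 held 7, 7 and 6 selected clones, with overlapping intervals. Among TRAV segments, TRAV13-1 was used by 6 selected clones (7.59%, 2.84 to 15.8, against 3.83%), and TRAV7-5 and TRAV9D-3 by 4 each, all with overlapping intervals. TRAV12D-3, TRAV3D-3, TRAV6-6, TRAV6N-7 and TRAV7D-5 had 3 each. Duplicated TRAV copies are near-identical, so assignments within a family are uncertain.

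Selected cells were also shallower and differed in receptor recovery. Their median was 3484 UMIs (502 to 12576) against 4440 (461 to 12507) in other cells. Having more UMIs makes 2 genes easier to see, and the part of depth in the selection was not tested. Ribosomal protein genes took 33.4% of their UMIs against 42.7%, and mitochondrial genes 2.61% against 2.64%. A productive contig was found in 129 of 163 selected cells (79.1%, 72.1 to 85.1) and in 2835 of 3103 others (91.4%, 90.3 to 92.3). Among cells with a TRB, at least 2 different TRB sequences, which can mark a droplet with more than 1 cell, were present in 28 of 123 selected cells (22.8%, 15.7 to 31.2) and in 287 of 2779 others (10.3%, 9.22 to 11.5). Such cells were given no clone, so the shares above do not contain them. No selected cell and no shared-clone cell had a barcode that occurred in both receptor tables.

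The 6 genes chose the cells, so their levels are given as a description. Itgae had a UMI in 132 of the selected cells, Lgals3 in 84, Itga1 in 68, Gzmb in 60, Ccr10 in 50 and Gzma in 47. Itgae, at 457 against 26.5 CPM (UMIs per 1000000 UMIs of the group), was the least restricted: 252 other cells had it as their only gene. Gzma was unevenly spread, with 1 to 61 UMIs in cells that had any. No cell had all 6 genes, 89 had exactly 2, 44 had 3, 19 had 4 and 11 had 5. Among the cells with exactly 2, the commonest pairs were Itgae with Lgals3 (19 cells), Itga1 with Itgae (18) and Itgae with Ccr10 (14).

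Each gene was then left out of the selection in turn, so that it could be read in cells chosen by at least 2 of the other 5. Itgae had a UMI in 66 of 97 such cells (68.0%, 57.8 to 77.1) and in 10.03% (9.01 to 11.1) of the rest. Lgals3 was found in 39.2% against 2.52%, Itga1 in 31.2% against 1.31%, Gzmb in 29.0% against 1.31%, Gzma in 21.6% against 2.57% and Ccr10 in 20.4% against 1.38%. On the CPM scale the log2 ratios were 3.46 for Itgae, 5.13 for Lgals3, 4.42 for Itga1, 5.31 for Gzmb, 5.82 for Gzma and 3.90 for Ccr10. All 6 genes were higher in cells chosen without them, and the median depth of these cells was lower (2975 to 3370 UMIs against 4437 to 4442.5). The 6 genes had been chosen together with earlier results of these data known. These values thus describe the selection and are no independent support for it.

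Across the transcriptome, ratios were taken between UMIs summed over selected and over other cells, in CPM, as log2 with a prior of 1 CPM on both sides. A gene was called higher or lower from a 2-fold difference, which with few UMIs counting error alone can give. Of 9032 genes outside the selection with at least 50 UMIs, 455 were higher in selected cells (5.04%) and 263 were lower (2.91%), and the median log2 ratio was 0.205. Among 6041 genes with at least 200 UMIs the shares were 2.57% and 0.778%. Relative to a median-of-ratios shift of 0.244 on the log2 scale, the split turned to 255 higher and 442 lower, so counts in each direction depend on the scaling. Of the 263 lower genes, 38 had no UMI in selected cells, and with these set at a floor of 3 counts over the group (4.44 CPM), 227 genes were lower. The lower share of ribosomal protein UMIs moves with these ratios, and its part in them was not tested.

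**Figure D2:**
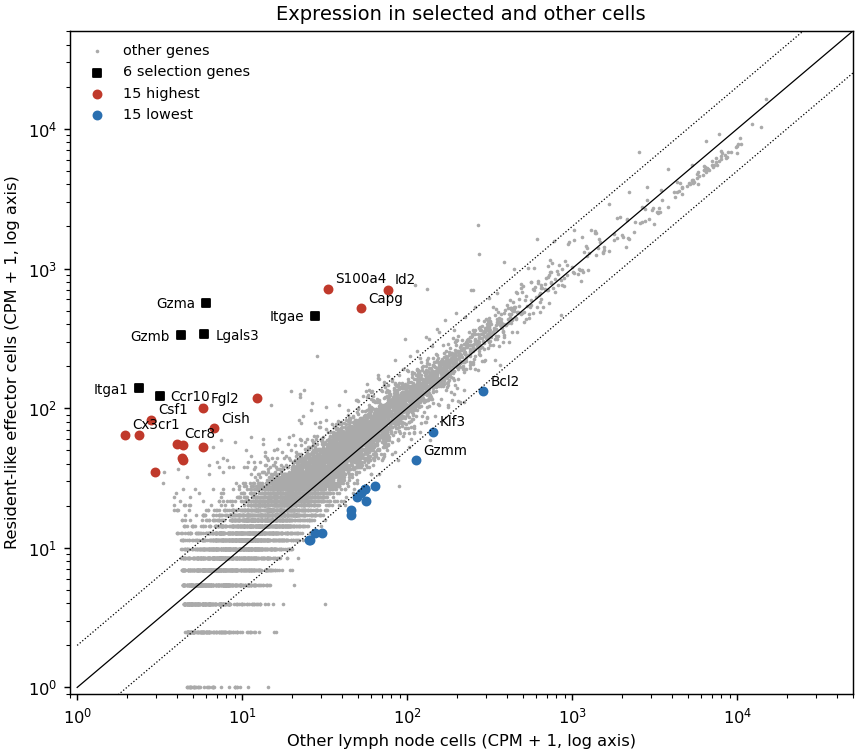
Summed expression of each gene in the 163 selected cells against the 3103 other cells, in CPM plus 1 on log axes. Black squares are the 6 selection genes, red and blue points the 15 highest and 15 lowest named genes, the solid line equality and dotted lines a 2-fold difference. S100a4, Id2 and Capg lie far above the line at levels over 500 CPM, and the lowest genes lie nearer to it.

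The highest gene was Cx3cr1, the fractalkine receptor and a marker of effector cells in circulation, with 43 UMIs in 31 selected cells against 13 UMIs in all other cells (63.6 against 0.937 CPM, log2 ratio 5.06). Csf1, the macrophage growth factor, followed at 81.4 against 1.80 CPM (4.88), and Anxa1, annexin A1, at 63.6 against 1.37 (4.77). These genes had a UMI in 19.0% to 21.5% of selected cells. The abundant genes among the highest were S100a4, a calcium-binding protein of motile cells, at 718 against 32.3 CPM (4.43, 4.29 to 4.66), Id2, which holds E proteins in check and promotes effector differentiation, at 703 against 75.2 (3.21, 3.07 to 3.38), and the actin-capping protein Capg at 519 against 51.6 (3.31, 3.14 to 3.52). S100a4 had a UMI in 66.9% of selected and 7.22% of other cells. After thinning to 1500 UMIs per cell, which left out 24 selected and 152 other cells, the shares were 52.5% and 3.49%.

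The remaining genes of the highest 15 include secreted, receptor and signalling genes. They were Fgl2, a secreted fibrinogen-like protein (log2 ratio 4.10), the chemokine receptor Ccr8 (3.79), the endocytic adaptors Hip1 (3.63) and Itsn1 (3.57), Cish, a STAT5 target that limits cytokine signalling (3.41), the receptor-associated adaptor Trat1 (3.27), the nuclear receptor Rora (3.18), and Ttc39c (3.35) and Ly6g5b (3.27). All 15 were at least 2-fold higher in each of 17 alternatives. On mm10, Cx3cr1 lies on chromosome 9 from 119901616 to 120069879, S100a4 on chromosome 3 from 90603771 to 90606045 and Id2 on chromosome 12 from 25093799 to 25097140.

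The 15 lowest genes that were seen in at least 10% of other cells differed by less, with log2 ratios from -1.41 to -1.08. Rarer genes had lower ratios, down to -3.85 over all genes tested. The lowest ratio of the 15 was that of Gzmm, a granzyme outside the selection, at 41.4 against 112 CPM (-1.41, -2.03 to -0.89). The survival factor Bcl2 was at 132 against 288 CPM (-1.12, -1.45 to -0.83), and the transcription factor Klf3 at 66.6 against 141 (-1.08). Bcl2 had a UMI in 25.8% of selected and 61.1% of other cells. The others were Rcl1, which acts in ribosomal RNA processing, Samd3, Gpatch4, Ttc28, Dph5, Tfap4, Arl4a, Nfrkb, the mitochondrial copper chaperone Sco2, the Ras inhibitor Rasa2, the DNA repair enzyme Apex1 and the sodium pump subunit Atp1b1. Of all 510 values of the 30 genes in the 17 alternatives, 472 were past 2-fold. The choice of these genes had required their direction in 2 of the alternatives.

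Genes that the label did not use were then read in lists. The lists had been chosen with earlier results of these data known, so they are no independent check of the label. Of 19 residency genes, 10 were higher and 2 lower in selected cells, with a median log2 ratio of 1.18, against 5.04% higher, 2.91% lower and a median of 0.205 over all genes tested. The residency median was 0.55 when Itgae was left out of the selection. Litaf was at 51.8 against 5.62 CPM (3.00), and Cxcr6, a chemokine receptor of T cells in tissues, at 709 against 131 (2.43, 2.29 to 2.59), with a UMI in 76.1% and 36.6% of cells. The lower members were Crtam, at 19.2 against 41.1 CPM (-1.06), and Nr4a2, with 2 UMIs in selected cells (-1.08, -4.38 to 0.58). Cd69, a defining surface marker of resident cells, was at 218 against 290 CPM (-0.41) and Xcl1 at 51.8 against 102 (-0.96, -1.51 to -0.50), neither of them past 2-fold. The residency list was thus higher in part, without Cd69, and the gene of effector cells in circulation, Cx3cr1, had the highest ratio of all, so the cells are called selected cells here.

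Of 14 effector genes, 8 were higher and none lower, at a median of 1.54, against 5.04% higher and 2.91% lower over all genes tested. Besides Cx3cr1 and Csf1, which are both on this list, Ccl5 was at 6785 against 2527 CPM (1.42) and Ifng at 37.0 against 7.78 (2.11). Klre1 (-0.92) and perforin, Prf1 (82.9 against 64.6 CPM, 0.35), had the lowest ratios. In the cytotoxic granule list, from which Gzma and Gzmb had been left out, 2 of 16 genes were higher and 1 was lower (median 0.48). Gzmk stood at 57.7 against 6.41 CPM (2.99) and the protease Ctsd at 527 against 255 (1.05), while Gzmm was lower, as above, and Serpinb6b was at -0.62.

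Recirculation genes were mostly between the 2-fold limits. Of 25 members 1 was higher, Cx3cr1, and 1 lower, Klf3, with a median of -0.35. Ccr7, the receptor that brings T cells into lymph nodes, was at 110 against 220 CPM (-0.997, -1.36 to -0.67), just inside the limit. Samhd1 was at 277 against 141 CPM (0.97). Of 20 stem-like memory genes none was higher and 2 were lower, against 5.04% and 2.91% of all genes tested, with a median of -0.57. The lower ones were Bcl2 and Myb, which had 3 UMIs in selected cells and an interval that included 0 (-1.24, -3.70 to 0.16). Il7r, the receptor of the survival cytokine IL-7, was at 749 against 500 CPM (0.58). Ltb had the next highest ratio of that list (0.37).

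**Figure D3:**
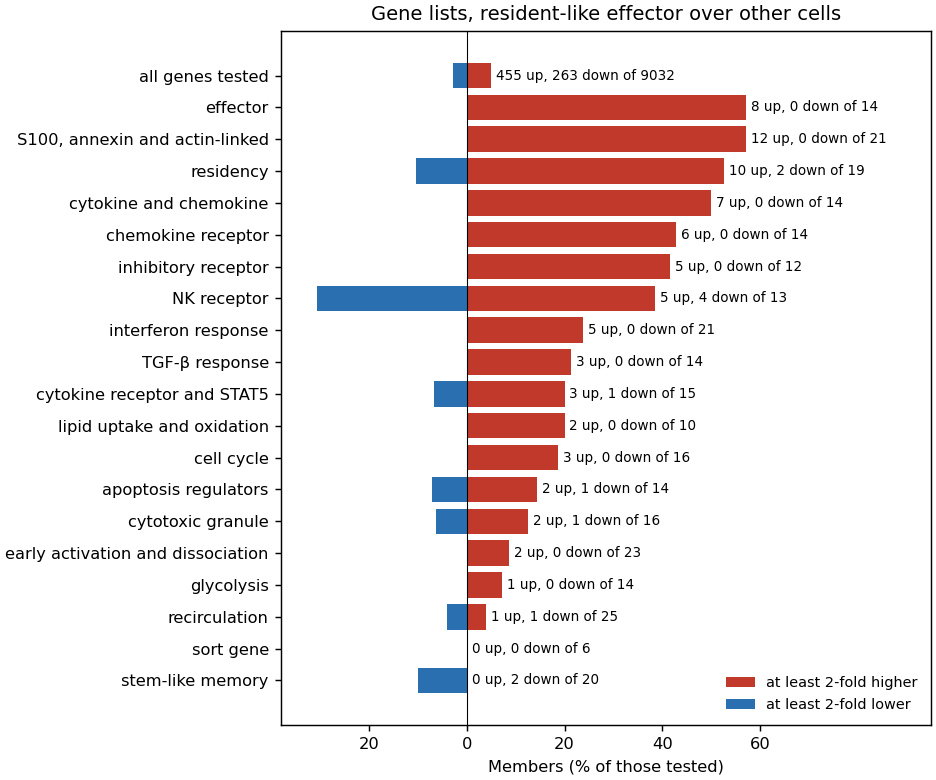
Share of the tested members of each gene list that were at least 2-fold higher (red, right) or lower (blue, left) in the 163 selected cells, in percent, with counts. The first bar gives all 9032 genes tested, and the effector (8 of 14), S100 (12 of 21) and residency (10 of 19) lists reach over 50% higher genes. The type 17 list, with only 3 tested members, is not drawn.

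Chemokine receptors were 6 of 14 higher and none lower, against 5.04% and 2.91% of all genes tested. Cx3cr1 and Ccr8 led the list, and Ccr7 and Gpr183 (65.1 against 108 CPM, -0.73) ended it. The median of 0.39 had the opposite sign in 3 alternatives given in the closing section, so a direction holds for its named members, not for the list. Of 14 cytokine and chemokine genes 7 were higher (median 0.84), with Csf1 and Fgl2 on top and Xcl1 and Tnfsf14 (-0.38) at the bottom. Rora and Aqp3 (59.2 against 21.5 CPM, 1.42) were higher among 3 type 17 genes, and Ramp1 was at 0.58.

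The S100, annexin and actin-linked list held 12 of 21 higher genes and none lower (median 1.22), from Anxa1 and S100a4 down to Tagln2 (0.17) and Actg1 (0.08). Over all genes tested, 5.04% were higher and 2.91% lower. Interferon response genes were 5 of 21 higher and none lower (median 0.62). Ly6a, the Sca-1 antigen, was at 765 against 111 CPM (2.78, 2.64 to 2.93) and Rsad2 at 1.31, from 11 UMIs, of which 9 were in cells with exactly 2 of the 6 genes and none in those with 4 or 5, while Usp18 was at -0.08 and Ly6c2, a surface antigen of circulating memory cells, at 1432 against 2128 CPM (-0.57, -0.66 to -0.48). Ly6c2 had a UMI in 52.1% of selected and 88.5% of other cells, and thinning to 1500 UMIs gave 52.5% and 83.5%.

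Receptors of the natural killer type differed in both directions, with 5 of 13 higher and 4 lower (median 0.16), against 5.04% and 2.91% of all genes tested. The activating receptor Klrk1 (NKG2D) was at 237 against 27.4 CPM (3.07, 2.84 to 3.38) and the inhibitory Klrc1 (NKG2A) at 126 against 21.4 (2.50, 2.19 to 2.91). The Ly49 receptors Klra7 and Klra6 were lower, with 2 UMIs each in selected cells (-3.001 and -2.16). Members of the Klra and Klrc families are similar in sequence, so counts may be split between copies. Of 12 inhibitory receptors 5 were higher and none lower (median 0.63): Pdcd1 (PD-1) was at 25.2 against 4.18 CPM (2.34), Lag3 at 40.0 against 9.87 (1.91), Btla at 0.19 and Tox at -0.11. Of the 27 Lag3 UMIs, 23 were in cells with exactly 2 of the 6 genes (57.5 CPM, 36.4 to 86.3), and cells with 3 and with 4 or 5 genes had 2 UMIs each (12.5 and 17.3 CPM).

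In 4 further lists at most 3 members each were higher, where 5.04% of all genes tested were higher and 2.91% lower. TGF-β response genes were 3 of 14 higher (median 0.55), with Cdh1 (E-cadherin) at 2.07, Ski at 1.16, Smad7 at -0.16 and Tgif1 at -0.29. Cytokine receptor and STAT5 genes were 3 of 15 higher and 1, Bcl2, lower (0.40), with Cish and Il12rb1 (1.59) on top and Il4ra at -0.60. Cell cycle genes were 3 of 16 higher (0.35), with Mki67 at 14.8 against 3.82 CPM (1.71), in 4.91% and 0.999% of cells, Hmgb2 at 1.17, Tuba1b at -0.18 and Tubb5 at -0.39. Apoptosis regulators were 2 of 14 higher and 1, Bcl2, lower (0.45), with the survival genes Bcl2a1d (1.93) and Bcl2a1b (1.13), which are close copies, on top and Bbc3 (-0.81) next to the lowest.

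Metabolic and early response genes differed in few members, and the shares of higher genes in the glycolysis and early response lists were near the 5.04% of all genes tested. Lipid uptake and oxidation genes were 2 of 10 higher (0.23), Fabp5 (1.92) and Cpt1a (1.02), with Etfa at 0.14 and Hadhb at 0.08. Glycolysis genes were 1 of 14 higher (0.068), the glucose transporter Slc2a3 (1.42), with Eno1 at 0.45, Gpi1 at -0.11 and Pfkp at -0.14. Early activation and dissociation genes were 2 of 23 higher (median -0.033), Fosb (1.68) and Irf4 (1.53), while Nr4a1 (-0.98) and Nr4a3 (-0.96) had 1 and 2 UMIs in selected cells.

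The genes of the sort were present. Cd8a was at 1011 against 537 CPM (log2 ratio 0.91, 0.80 to 1.03), with a UMI in 93.9% and 82.5% of cells, Cd8b1 at 1790 against 1377 (0.38) and Cd44 at 132 against 69.0 (0.92). Cd3e was at 0.33, Cd3g at 0.53 and Cd3d at -0.10, none past 2-fold. Cd4 was not analysed here.

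Markers of other cell types were summed per group. B cell markers were at 265 CPM (227 to 307) in selected and 233 (225 to 241) in other cells, over 7 of 12 genes. Of these, the antigen presentation genes were higher (Cd74 at 81.4 against 21.2 CPM, H2-Ab1 with 8 UMIs against 12) and Ighm was lower (104 against 175). Myeloid markers were at 130 against 94.5 CPM (4 of 12 genes, mostly Cst3), NK and innate lymphoid markers at 76.9 against 95.5 (3 of 9), NKT and MAIT markers at 114 against 67.4 (4 of 6), keratinocyte markers at 8.88 against 17.3 (2 of 10), and the endothelial marker Pecam1 at 16.3 against 25.0. The dendritic cell marker Itgax had no UMI in selected cells. CD4 T cell and regulatory T cell markers were at 139 against 49.3 CPM over 6 of 8 genes, with Cd40lg at 34.0 against 6.63 and Ctla4 at 37.0 against 15.1. Melanocyte and erythroid markers were not analysed here.

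Trgv2, a variable segment of the γ chain and the 1 of 12 γδ T cell markers analysed, had a UMI in 37 of 163 selected cells (22.7%, 16.5 to 29.9) and in 43 of 3103 others (1.39%, 1.005 to 1.86). It was seen in 31 of 129 selected cells with a productive αβ receptor contig (24.0%, 16.9 to 32.3) and in 6 of 34 without one (17.6%, 6.76 to 34.5). Its share was 53.3% (34.3 to 71.7) in cells with 4 or 5 of the genes. The part of these markers in the gene lists was not tested. In cells with exactly 1 TRB sequence, which leaves out barcodes with several TRB or none, the log2 ratios were 4.89 for S100a4, 5.49 for Cx3cr1, 3.35 for Id2 and 3.81 for Trat1. In all cells they were 4.43, 5.06, 3.21 and 3.27. The residency, effector, recirculation and stem-like medians were then 1.25, 1.30, -0.45 and -0.79, against 1.18, 1.54, -0.35 and -0.57 in all cells. This restriction does not remove droplets in which a CD8 T cell joins a cell without a TRB.

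The levels of some genes outside the selection followed how many of the 6 genes a cell carried, and those of others did not. With 2, 3 and 4 or 5 genes, Csf1 was at 65.0, 131 and 69.3 CPM and Il7r at 752, 848 and 598. S100a4 was at 20.3 CPM in cells with none, 109.9 with 1, 497 with 2, 929 with 3 and 1187 with 4 or 5. Id2 went over the same steps through 65.6, 137, 410, 936 and 1395 CPM, and Cxcr6 through 119, 209, 482, 898 and 1230. Intervals of neighbouring steps did not overlap for S100a4, Id2 and Cxcr6 up to 3 genes. Those with 3 and with 4 or 5 overlapped for S100a4 and Cxcr6 but not for Id2. Klrk1 went from 23.9 to 563 CPM and Cx3cr1 from 0.333 to 191, its UMIs being present in 15 of 30 cells with 4 or 5 genes and in 4 of 2679 with none.

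Some genes of the circulating and quiescent state went the other way. Ly6c2 was at 2177, 1808, 1657, 1378 and 728 CPM over the 5 steps, and Bcl2 at 299, 214, 155, 125 and 60.7. Ccr7 was at 216 and 242 CPM with no and 1 gene, 137 and 112 with 2 and 3, and had 1 UMI in the 30 cells with 4 or 5 (8.66 CPM, 0.219 to 48.3). Cd8b1 was between 1365 and 2019 CPM throughout. The levels of cells just inside the selection, with exactly 2 genes, were therefore between those just outside and those with 3 or more for S100a4, Id2, Cxcr6, Ly6c2, Bcl2 and Ccr7. For Ly6c2 and Bcl2, however, the interval with 2 genes overlapped those with 1 and with 3, and for Ccr7 that with 3.

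**Figure D4:**
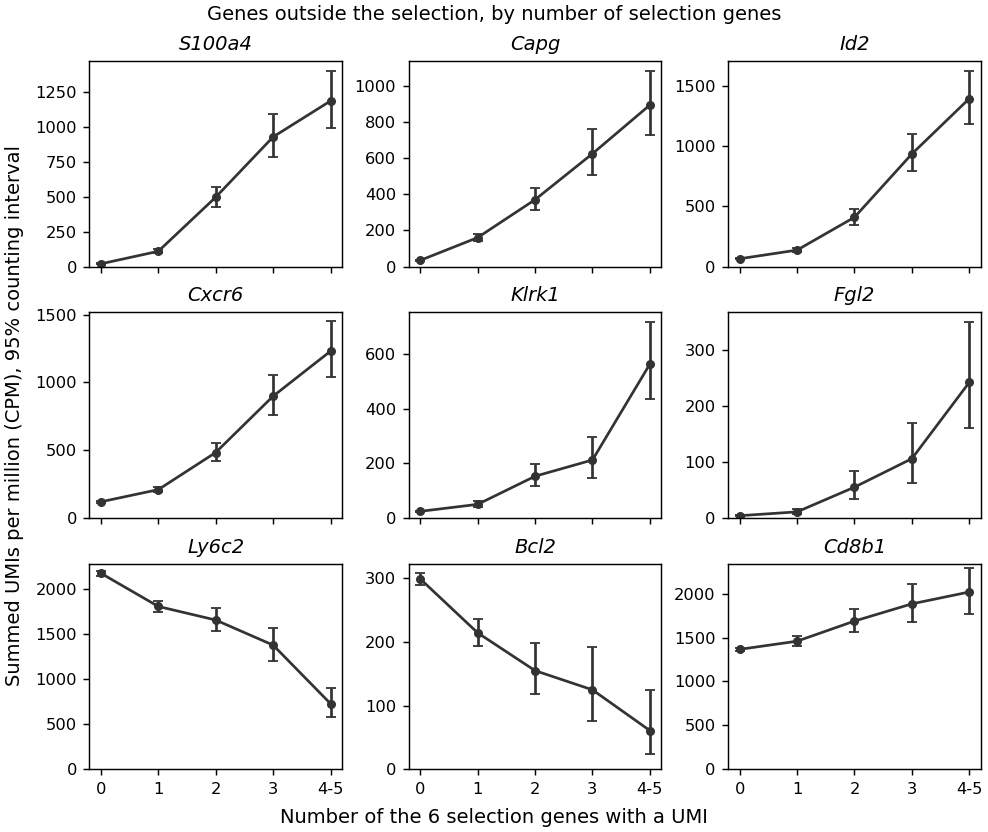
Summed CPM of 9 genes outside the selection in cells with 0, 1, 2, 3 and 4 or 5 of the 6 selection genes (2679, 424, 89, 44 and 30 cells). Points are group levels and lines exact 95% Poisson intervals. S100a4 goes from 20.3 to 1187 CPM and Ly6c2 from 2177 to 728 CPM.

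The selected cells were not alike. An integrin gene without a granzyme gene was seen in 77 of them, a granzyme without an integrin in 13, both in 68 and neither in 5. Shared clones made up 7 of 39 integrin-only cells with a clone (17.9%, 7.54 to 33.5), 3 of 9 granzyme-only cells (33.3%, 7.49 to 70.1) and 12 of 31 cells with both (38.7%, 21.9 to 57.8), with overlapping intervals. Trgv2 was seen in 12 of 77 integrin-only cells, in 0 of 13 granzyme-only cells (up to 24.7%) and in 25 of 68 with both. The median depth was 3628, 4271 and 2912 UMIs.

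Between integrin-only and granzyme-only cells, 174 of 1712 genes with at least 30 UMIs were higher in the integrin-only cells (10.2%) and 49 in the granzyme-only cells (2.86%). The granzyme-only side rested on 13 cells with 62370 UMIs. Its clearest genes were of the interferon response, in 4 of 11 tested members: Isg15 was at 61.3 CPM in integrin-only and 689 in granzyme-only cells (-3.47, -4.33 to -2.69), from 43 UMIs in 6 of the 13 cells, and Zbp1 at 61.3 against 256.5 (-2.05). Tcof1, Tomm5, Pgls and Stat3 were also lower in integrin-only cells, at -1.51 to -1.42, but Tomm5 was at 1.31 after thinning to 1500 UMIs. Ifrd1 had 30 UMIs in integrin-only cells and none in the others, at least 1.91-fold higher against a floor of 3 counts over the group, and Rgcc, Fam32a, Atf7ip, Rnaseh2c and Tecpr1 had 1 UMI in granzyme-only cells. After thinning, Fam32a turned to -1.57 and Tecpr1 was at 0.0. S100a4 (0.24, -0.26 to 0.77) had an interval that included 0.

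Cells with an integrin and a granzyme gene were set against integrin-only cells, in a comparison added after the data were seen. Of 2731 genes with at least 30 UMIs, 47 were higher (1.72%) and 34 lower (1.24%). The cells with both were 68, with 270233 UMIs. These shares are therefore not comparable with those of the granzyme-only cells, which were far fewer and were compared over other genes. Gzmk was at 115 against 12.3 CPM (3.12, 1.73 to 5.19), Fgl2 at 181 against 55.2 (1.70) and Klrc1 at 207 against 64.4 (1.67), with Psmc4 and Ubr4 also among the highest. The lowest ratios were those of AI662270, Golgb1, Trerf1, Tbxa2r, Ehd3 and the adaptor Sh2d1a (40.7 against 110.4 CPM, -1.42). S100a4 (0.04, -0.24 to 0.32) and Capg (-0.07, -0.40 to 0.25) were at like levels on both sides.

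Selected cells of clones also found in skin were set against selected cells of clones not found there, also after the data were seen. The former were 22 cells with 56975 UMIs and a median of 2499.5, the latter 59 cells with 273814 UMIs and a median of 4447. Ribosomal protein genes took 22.8% and 34.5% of UMIs, and 21 of the 22 but 34 of the 59 lay in cluster 6 of the clustering given last. The number of selection genes differed as well. Skin-shared cells were 15 of the 32 with a clone and 3 or more of the genes, against 7 of the 49 with exactly 2. The part of depth, of ribosomal genes, of this cluster and of the number of selection genes in the ratios was not tested. Of 1482 genes with at least 30 UMIs, 116 were higher in the skin-shared cells (7.83%) and 104 lower (7.02%), and the median log2 ratio was 0.094.

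Several of the genes that were high in selected cells were higher still in the skin-shared cells. The chemokine Ccl5 was at 19219 against 4551 CPM (2.08, 1.96 to 2.20), Cxcr6 at 1860 against 438 (2.08, 1.70 to 2.48), Id2 at 1931 against 460 (2.07), and the glutaredoxin Glrx, Klrc1 and Ccr2 had log2 ratios of 2.08, 2.06 and 1.98. S100a4 was at 1896 against 588 CPM (1.69) and Cx3cr1 had 11 UMIs in 9 cells against 6 UMIs in 5. Of 6 effector genes tested 4 were higher (median 1.71), and of 19 S100, annexin and actin-linked genes 9 were (0.87). Of 6 residency genes 2 were higher (0.63), and of 7 cytotoxic granule genes 1 was (0.73). The share over all genes tested in this comparison was 7.83%.

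Genes of recirculation and stem-like memory were lower in the skin-shared cells, in 8 of 16 and 7 of 10 tested members, at medians of -0.83 and -1.30. Of all genes tested 7.02% were lower. Ly6c2 was at 123 against 1731 CPM (-3.81, -5.14 to -2.76), with 7 UMIs in 6 of the 22 cells. Ms4a4c, C1qbp, Sidt1 and Sfxn1 had no UMI in the 22 cells and 50, 43, 41 and 30 in the others, which makes them at least 3.47, 2.98, 2.84 and 2.08-fold lower against a floor of 3 counts over the group. The 2 lists share members and are not independent. Ly6c2 was thus far lower in the skin-shared cells, whereas between all selected and all other cells its log2 ratio was -0.57.

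**Figure D5:**
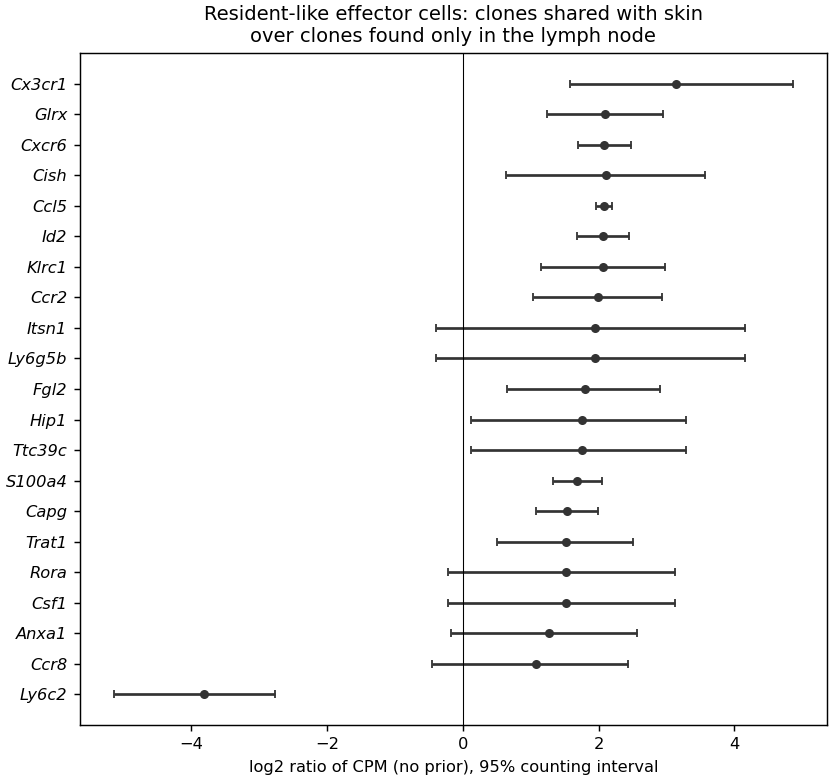
Log2 ratio of CPM, without a prior, between the 22 selected cells of clones also found in skin and the 59 selected cells of clones found only in the node, for Ly6c2 and the genes highest over other cells or in this comparison, with more than 3 UMIs on each side. Points are ratios and lines exact 95% intervals. Ccl5, Cxcr6 and Id2 lie near 2 with narrow intervals, and Ly6c2 lies below -3.

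In 7 further cells of the table the clone was shared with skin but the cell was not selected. Of these, 3 carried none of the 6 genes and 4 carried 1. Their median depth was 1925 UMIs (1102 to 2389). Ly6c2 had 1 UMI in 1 of the 7 cells, and Cxcr6 was seen in 3 of them with 4, 4 and 7 UMIs.

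Finally, all cells were clustered on variable genes from which the 6 selection genes and the receptor segments had been removed. Of 7 clusters, cluster 6, with 203 cells, held 119 of the 163 selected cells (73.0%, 65.5 to 79.7), and these made up 58.6% of it. It held 68 of the 74 cells with 3 or more of the genes and 51 of the 89 with 2. It also held 26 of the 29 shared-clone cells. Its leading genes, which defined it and are no result, were Csf1, Cx3cr1, S100a4, Anxa1 and Ccr8. The median depth of its cells was 2735 UMIs. The 44 selected cells outside it were deeper, at a median of 4775 UMIs against 2754 for the 119, and 1 of their 26 cells with a clone was shared with skin, against 21 of 55. Among them, 15 were in cluster 5, led by Wnt10a, Nrn1 and Izumo1r, and 13 in cluster 4, led by Mctp2 and Lmtk2. The selection of 2 genes thus took in cells that lay with other clusters once the 6 genes were removed.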

How the data were processed

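The authors deposited UMI counts of lymph node cells by gene, and for each tissue a table of receptor contigs with their read and UMI counts. Bowtie, RSEM and the build mm10 appear in the submitters' processing notes, without versions or roles. Per the labels, 16 samples are 4 libraries on 4 lanes each.

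The 163 cells, the gene lists and the comparisons were chosen with earlier results of these data known, so none is independent of them. Cells with at least 2 of 6 genes at 1 or more UMI were selected. UMI counts were summed per group and scaled to 1000000 (CPM). Log2 ratios used a prior of 1 CPM, and intervals are exact 95% Poisson intervals without it, so for genes with few UMIs in other cells, such as Cx3cr1, the printed ratio lies below the interval. Genes needed 50 UMIs over all cells, or 30 within the selected cells. Shares carry Clopper-Pearson intervals. With 1 library there was no test.

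Named genes are the 15 highest and 15 lowest seen in at least 10% of the cells of the side where they were higher and keeping their direction after thinning to 1500 UMIs and with cells weighted equally, without receptor, mitochondrial and ribosomal genes, plus 2 members from each end of every list, the sort genes, the 6 highest and lowest within the selected cells, 5 clones, and 5 TRBV and 5 TRAV segments, with those tied with the last also named for TRAV. Genes that the rule names but the text does not are not reported here. Other genes were named after their values were seen: Cd69, Ccl5 and Ifng, the markers of other cell types including Trgv2, Ly6c2 and Cxcr6 in the steps by number of genes, and clones F, H, J, Q and R. Clones were read from productive contigs of cells that had 1 TRB sequence and no more than 2 TRA sequences. Where a chain had several contigs, that of the highest UMI count was used. Clustering used scanpy 1.11.5 and the Leiden method (igraph 0.11.9) with 2000 variable genes, 30 components, 15 neighbours and a resolution of 1.0. No doublet caller was run, and barcodes with several TRB were used in its place. Positions are from GENCODE M21, on mm10. Ratios were run on simulated Poisson counts with known changes. These counts leave out the spread between cells, so they check the calculation only.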

Additional observations from a re-analysis of the deposited data

How the results depend on the processing

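No paired analysis was possible because the lane numbers that groups share mark lanes of 1 library, which the deposited tables pool. Genes 2-fold higher and lower in selected cells, 455 and 263 as reported, were 1008 and 772 with 3 of 6 genes required, 1063 and 776 after thinning to 1500 UMIs before the selection (73 cells), 927 and 481 with cells weighted equally, 147 and 12 with a prior of 10 CPM, 255 and 442 with median-of-ratios scaling, and 155 and 47 of 6041 genes with at least 200 UMIs. The lower count was 461 in cells with exactly 1 TRB and 557 without Itgae in the selection. The effector median was 2.19 and the stem-like median -1.17 with 3 genes. Thinned, the stem-like median was -1.52 and the chemokine receptor median -1.06, and the latter was -0.12 in cells with exactly 1 TRB and -0.14 in cells with a productive contig. The residency median was 0.55 without Itgae. The share of selected cells in skin-shared clones was 46.9% with 3 genes, 45.7% when thinned, 39.1% without Itgae and 14.6% (7 of 48, against 0.350% of others) with contigs of 3 or more UMIs. The share in expanded clones was 21.1% by TRB alone (13.4 to 30.6), against 9.43% of other cells (8.31 to 10.6), without overlap of the intervals. With contigs of 3 or more UMIs it was 0.0% of 48 cells (up to 7.40%), against 1.96% of others (1.31 to 2.82). Between integrin-only and granzyme-only cells, counts were 3326 and 1294 without a filter and 5 and 6 of 229 genes when thinned (24 and 12 cells), where Fam32a (-1.57), Tecpr1 (0.0) and Tomm5 (1.31) no longer kept their direction. At a resolution of 0.5, 89.0% of selected cells lay in 1 cluster of 768 cells. The cause of these changes was not tested. In addition to the counts and medians, 57 gene values moved beyond their counting interval. The depth of 675800 UMIs in selected cells limits rare genes, with a floor of 4.44 CPM.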
